A study of Mus musculus with 15 samples.

Results

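The change in gene expression over normal fat cell differentiation was measured in wild-type (WT) 3T3-L1 cells, a mouse preadipocyte line, as the 3 WT libraries of day 6 against the 3 of day 0. These 6 of the study's 15 RNA sequencing libraries were chosen by their titles, and every gene with enough counts was tested. The other 9 libraries come from cells labelled MIGA2-KO or MIGA2-GFP and enter no result below. Cells of both days were wild type, and the day 0 cells had stood at full confluence for 48 h in medium with calf serum. Day 0 is the moment at which the differentiation medium was added. That medium held 1 µM dexamethasone (a glucocorticoid), 0.5 mM IBMX (an inhibitor of phosphodiesterases) and 1 µg/mL insulin in fetal bovine serum. On day 2 it was replaced by medium with insulin alone, on day 4 by medium with none of the 3 agents, and the cells were harvested on day 6. Time in culture, the agents and the change of serum go together in this design, so their effects cannot be told apart. Nothing in the labels says that replicates were grown separately, so a p-value here reflects the spread among these samples alone, which may be technical. RNA came from whole cultures, in which fewer cells of a type and less RNA per cell cannot be told apart.

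As background, a preadipocyte is a fibroblast that makes a collagen-rich matrix and is spread out on actin stress fibres. Hormones induce the factors C/EBP beta and C/EBP delta, which turn on PPAR gamma and C/EBP alpha, and these in turn activate the genes of the fat cell. The cell then rounds up, changes its matrix and its receptors, and stores triacylglycerol made from fatty acids and glycerol phosphate.

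Library totals ran from 19625147 to 26003871 counts at day 0 and from 12139151 to 12355905 at day 6. Of 25700 genes in the table, 12174 had enough counts to be tested. Replicate 1 stood apart from the other pair on both days, and the replicates of a day correlated at 0.965 to 0.993 in log2 CPM across genes (CPM, counts per 1000000 of the scaled library total). These are correlations across genes, which do not replicate one another, and no test was made of them. Cytosolic ribosomal protein genes held 9.34% of counts in day 0 replicate 1 against 5.29% to 5.90% in the other day 0 libraries. At day 6 replicate 1 was at 3.79% and the others at 5.71% to 5.86%, so the groups overlapped. All 6 adipocyte markers rose, their summed level going from 45 to 64.8 CPM at day 0 to 24060 to 31590 CPM at day 6. Of 8 preadipocyte markers 7 fell, from a sum of 15940 to 20570 CPM to a sum of 5246 to 5661 CPM. Endothelial markers stayed under 1.8 CPM in sum, and no marker of that list was tested. Macrophage markers summed to 70.1 to 101 CPM at day 0 and 9.54 to 15.5 CPM at day 6, with Lyz2 and Csf1r lower and Ptprc, the pan-leukocyte marker, at 0. Brown fat markers summed to 3.45 to 8.89 CPM and then 70.8 to 84.4 CPM, with Cidea and Elovl3 higher, Ppargc1a lower and Ucp1 at 0. The part of such markers in the results below was not tested. The epithelial keratins Krt8 and Krt18 and the mesothelial genes Msln and Upk3b rose. Their marker lists summed to 6.29 to 11 CPM and 52.9 to 61.5 CPM at day 6. Cdh1 and Epcam, which define epithelium, had no count in any library. Of the mesothelial markers not tested, Wt1 had 4, 2 and 0 counts at day 0 and 1, 0 and 0 at day 6. Lrrn4 had 3, 9 and 6 counts and then 1, 1 and 3.

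About as many genes rose as fell. Of 12174 genes, 6259 (51.4%) passed at an adjusted p under 0.05 in edgeR's quasi-likelihood test, 3135 (25.8%) higher and 3124 (25.7%) lower at day 6. The median log2 fold change over all genes tested was -0.04. The balance depends on scaling: with raw library totals in place of TMM, 2183 genes were higher and 4968 lower, and the median was -0.43. Every list below is read against these shares, and no gene that passed under both scalings had opposite signs.

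The messenger RNA pool also became concentrated in fewer genes. The 10 most abundant genes took 8.05%, 9.94% and 9.46% of counts in the day 0 libraries and 17.9%, 14% and 13.2% in the day 6 libraries. All day 6 values lay above all day 0 values, which gives p = 0.1 in the exact two-sided permutation test, the smallest that 3 against 3 allows. The number of genes that held 50% of all counts fell from 480, 541 and 592 at day 0 to 346, 352 and 363 at day 6. At day 0 the 10 most abundant genes included 5 of the matrix, Col1a2, Bgn, Fn1, Col1a1 and Col3a1, with means from 6879 CPM for Col3a1 to 12500 CPM for Col1a2, and also Eef1a1, Fth1, mt-Co1 and mt-Cytb. Ptn, for the secreted growth factor pleiotrophin, was among them, with 4904, 5514 and 4857 CPM at day 0 and 301, 276 and 273 CPM at day 6 (log2 fold change -4.17 ± 0.16 SE, adjusted p = 1.13e-06). Bgn, for biglycan, fell with an adjusted p of 0.0163, which became 0.0637, 0.0686 and 0.0678 without day 0 replicate 2, day 6 replicate 2 and day 6 replicate 3. At day 6 the top was shared between mitochondrially encoded genes and Scd1, Fabp4, Lpl, C3, Cfd and Agt. Agt, for angiotensinogen, stood at 44, 30.7 and 23.7 CPM at day 0 and 6200, 9187 and 10110 CPM at day 6, a log2 fold change of 8.02 ± 0.37 (adjusted p = 1.95e-06). The groups were apart for both genes. At the extreme, 76 genes had no count at day 0 and at least 10 in each day 6 library, and 41 genes showed the reverse.

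**Figure D1:**
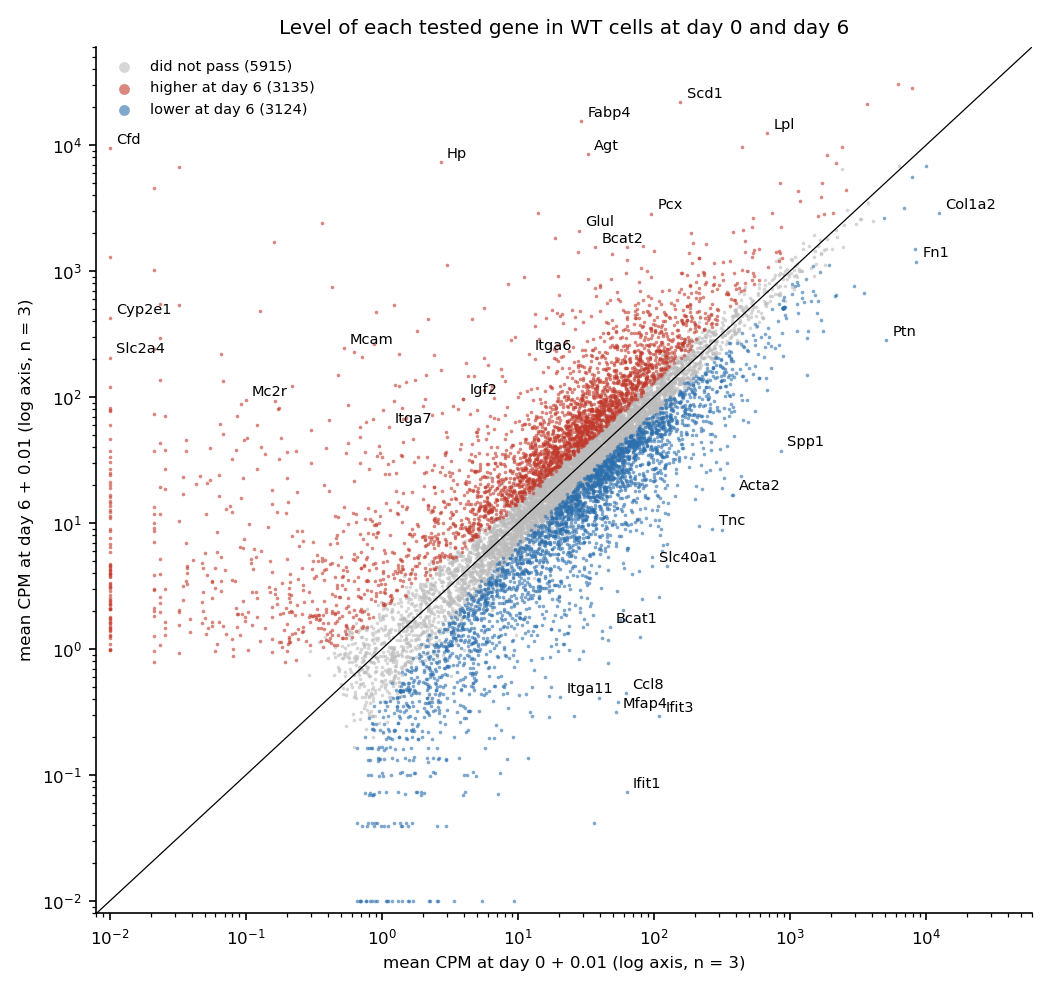
Mean level of each tested gene in 3 WT libraries at day 0 (x axis) and day 6 (y axis), in CPM plus 0.01 on log axes, with genes coloured by whether they passed; the line marks equal levels. Genes on the left edge, such as Cfd, Cyp2e1 and Slc2a4, had no count at day 0, and matrix genes such as Col1a2, Fn1 and Ptn lie below the line at the high end.

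The gene lists divided into those that rose nearly throughout, those that fell, and those in which members went both ways. Fatty acid synthesis, the TCA cycle, the respiratory complexes and branched-chain amino acid breakdown were in the first set. Matricellular proteins, integrins, cytoskeleton, mitosis and interferon-stimulated genes were in the second, and receptors of lipolysis, eicosanoid enzymes, complement and collagens were in the third. With 25.8% of all genes tested higher and 25.7% lower, a list of unrelated genes would hold members of both kinds as well.

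**Figure D2:**
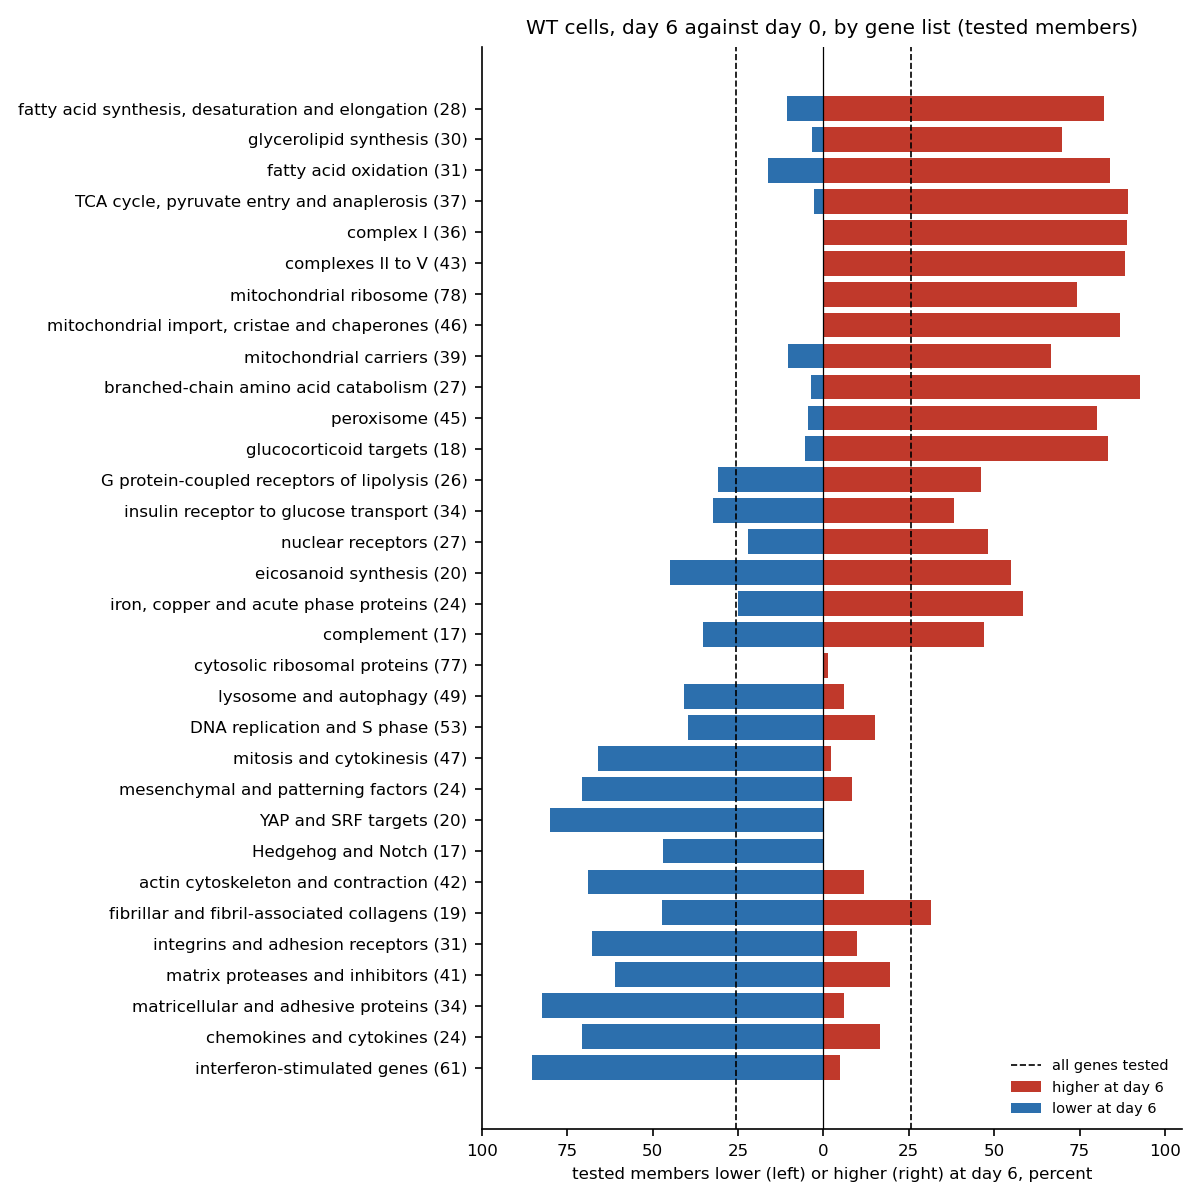
Share of the tested members of each gene list that were higher (right) or lower (left) at day 6, in percent, with the number tested in brackets. Dashed lines mark the shares over all genes tested, 25.8% higher and 25.7% lower; cytosolic ribosomal protein genes had 1 member called of 77.

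Transcription factors of the fibroblast fell. Of 24 tested factors of mesenchyme and body pattern, 17 fell and 2 rose, with a median log2 fold change of -1.01 against -0.04 over all genes. Prrx1, a homeobox factor of limb and connective tissue mesenchyme, went from 324, 456 and 519 CPM to 124, 97.5 and 93.3 CPM (-2.05 ± 0.22, adjusted p = 0.000132). Runx2, the bone lineage factor, went from 30.8 to 4.48 CPM, and Hmga2, a chromatin protein of growing mesenchymal cells, from 96.8 to 12.8 CPM. The largest fall in the list was that of Hic1, a zinc finger factor marking quiescent mesenchymal progenitors, at -3.76 ± 0.31. Among TEAD factors, the DNA-binding partners of YAP, Tead2 fell from 81.7, 68.7 and 62.7 to 19.8, 25 and 23.4 CPM and Tead4 rose from 4.84, 5.54 and 5.46 to 23.6, 24.9 and 18.5 CPM. The genes that YAP and SRF drive when cells are spread and under tension fell with them. Of 20 tested, 16 fell and 0 rose (median -1.75), among them Ccn1, Ankrd1, Tagln and Acta2, while Srf itself was at -0.01 and did not pass. Acta2, for smooth muscle actin, dropped from 462, 350.1 and 328 CPM to 12.3, 13.8 and 24.3 CPM (-4.50 ± 0.31, adjusted p = 1.44e-05).

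Of 32 tested transcription factors of adipogenesis 17 rose, 3 fell (Gata2, Ebf3 and Egr2) and 12 did not pass. Pparg and Cebpa are the best known, and Klf15, Nr1h3, Bcl6 and Foxo1 moved with them. Klf15, a Krüppel-like factor that acts in amino acid and lipid metabolism, had 0, 0 and 1 counts in the day 0 libraries and 357, 446 and 567 in the day 6 libraries. The scaled sums differed 3235-fold, and counting error allows 579.7 to 127900 (95% interval). Klf5 rose as well, from 3.07, 3.1 and 3.34 CPM to 21.3, 26.2 and 23.7 CPM, and Klf4 fell from 35.1 to 19.6 CPM. Of 13 Krüppel-like factors tested 2 rose and 5 fell, and 3 fell without day 0 replicate 2, day 0 replicate 3, day 6 replicate 2 or day 6 replicate 3. Nr1h3, for the oxysterol receptor LXR alpha, stood at 5.36, 4.51 and 4.4 CPM at day 0 and 108, 156 and 179 CPM at day 6 (4.96 ± 0.24, adjusted p = 2.5e-06). Esrra, which drives respiratory genes, rose from 28 to 87.5 CPM. Rxrg, which pairs with other nuclear receptors, had no count at day 0 and 20, 11 and 14 counts at day 6, a rise of at least 35.4-fold when day 0 is set to a floor of 3 counts in its libraries together.

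Genes that respond to glucocorticoids were high 4 days after dexamethasone was removed from the medium. Of 18 tested targets, 15 rose and 1 fell, with a median log2 fold change of 2.99. Fkbp5, a co-chaperone that limits the receptor, was at 82.5, 84.3 and 81.9 CPM at day 0 and 1546, 1583 and 1599 CPM at day 6 (4.25 ± 0.15, adjusted p = 7.07e-07). Tsc22d3, also called GILZ, rose from 48.7 to 858 CPM. Hsd11b1, the enzyme that regenerates active glucocorticoid inside the cell, rose from 15.3, 11.5 and 13.2 CPM to 446, 457 and 455 CPM (5.09 ± 0.18, adjusted p = 7.07e-07). Spread between replicates was small beside these changes. The gene of the receptor itself, Nr3c1, was the member that fell, at -1.05 ± 0.34 with adjusted p = 0.0321, and this call was lost without day 0 replicate 2 (adjusted p = 0.10), day 0 replicate 3 (0.098), day 6 replicate 2 (0.11) or day 6 replicate 3 (0.11). Immediate early genes, the first to answer a mitogen, went both ways: 10 of 20 fell and 6 rose. Egr1 fell from 94.2, 133 and 122 CPM to 15.7, 12.5 and 15.6 CPM, whereas Myc rose from 15.1, 11.4 and 8.6 CPM to 65, 76.4 and 75.2 CPM (2.62 ± 0.23, adjusted p = 4.92e-05). Clock genes were mixed too, with 7 of 19 higher and 2 lower. Per1 went from 23.3 to 76.6 CPM and Nfil3 from 15.1 to 61.7 CPM, and Bhlhe41 fell from 28.6 to 6.92 CPM.

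The receptors through which hormones and metabolites reach lipolysis, the release of stored fat, went both ways. Of 42 such G protein-coupled receptors in the table, 26 had enough counts, of which 12 rose and 8 fell. Mc2r, the corticotropin receptor, held 0, 2 and 5 counts in the day 0 libraries and 1150, 925 and 986 in the day 6 libraries, or 102, 89 and 94 CPM. Receptors for metabolites were among those with no count at day 0. Hcar1, the lactate receptor, reached 37.2, 36.4 and 38.1 CPM, at least 942-fold higher, and Hcar2, which binds hydroxybutyrate, was at least 362-fold higher. Ffar4, for long-chain fatty acids, was at least 310.1-fold higher and the adenosine receptor Adora1 at least 190.5-fold. Adrb3, the beta-3 adrenergic receptor, rose from no count to 4.17, 7.02 and 9.25 CPM. In the other direction, all of the sphingosine phosphate receptors tested fell: S1pr1 from 8.85, 10.2 and 8.97 CPM to 0.886, 0.866 and 0.382 CPM, S1pr2 from 82.3 to 20.4 CPM and S1pr3 from 83.4 to 18.9 CPM. Npy1r, for neuropeptide Y, fell from 24 to 2.99 CPM and Ptger4, for prostaglandin E2, from 6.00 to 0.693 CPM. Downstream of these receptors, 14 of 32 genes of cyclic nucleotide signalling fell and 8 rose. Adcy7 and Adcy3, which make cAMP, fell by 4.54 and 2.23 on the log2 scale. Adcy5, another enzyme of this kind, rose at a low level, from 0.0291 to 1.36 CPM (edgeR adjusted p = 0.000357). Pde3b, the phosphodiesterase that insulin activates, rose from 9.78, 16.6 and 20.4 CPM to 88.3, 46.8 and 55.5 CPM, and the kinase subunits Prkaca and Prkar2b rose to 299.5 and 189.7 CPM.

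Growth factor genes also went both ways. Of 36 tested genes of the FGF, PDGF, EGF and VEGF families, 15 fell (41.7%) and 11 rose (30.6%). Over all genes tested 25.7% fell and 25.8% rose, so the share that rose was near that of all genes. Ligands of the fibroblast fell: Hgf from 11, 28.3 and 32 CPM to 1.42, 0.577 and 0.954 CPM, Fgf7 from 81.1 to 8.29 CPM and Nrg1 from 52.9 to 6.9 CPM. Nrg4, a ligand secreted by fat cells, rose from 0.0222 to 10.3 CPM, and Vegfa from 37.6, 51.7 and 46.8 CPM to 193, 159 and 162 CPM. Klb, the co-receptor for endocrine FGFs, rose from 0.0378 to 4.85 CPM. Igf2, an imprinted growth factor, was at 3.58, 3.47 and 4.77 CPM at day 0 and 94.3, 101 and 96.9 CPM at day 6 (4.62 ± 0.19, adjusted p = 1.19e-06), while Igf1 was at 30.4 to 32.8 CPM and did not pass. Prlr, the prolactin receptor, rose from 0.147 to 18.3 CPM (6.91 ± 0.38). Hedgehog and Notch genes fell in 8 of 17 tested and rose in none, with Dlk1, the preadipocyte factor that blocks differentiation, at 1124 to 334 CPM and Gli3, a Hedgehog effector, at 71.1 to 15.1 CPM.

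Isoforms encoded by separate genes parted in some families. In 14 of 35 families with at least 2 tested members, at least 1 member rose and at least 1 fell. Over all genes tested 25.8% rose and 25.7% fell, so groups of unrelated genes would part as well. The count of families was not tested against this. Branched-chain aminotransferase, which starts the breakdown of leucine, isoleucine and valine, has a cytosolic form (Bcat1) and a mitochondrial form (Bcat2). Bcat1 (ENSMUSG00000030268, chromosome 6, 144993835 to 145076184, reverse strand, in GENCODE vM21 on GRCm38) held 42.5, 51.4 and 47.9 CPM at day 0 and 1.51, 1.73 and 1.24 CPM at day 6 (-4.98 ± 0.21, adjusted p = 1.39e-06). Bcat2 (ENSMUSG00000030826, chromosome 7, 45570153 to 45589711, forward strand) held 48.7, 34 and 28 CPM and 1105, 1628 and 1883 CPM (5.38 ± 0.32, adjusted p = 6.56e-06). Per kilobase of exon, Bcat1 and Bcat2 were at 5.07 and 9.46 RPKM at day 0 and at 0.16 and 394 RPKM at day 6. Hexokinase, the first step of glucose use, showed a fall of Hk1 from 177, 191 and 166 CPM to 54.7, 59.9 and 64.7 CPM and a rise of Hk2 from 30.9, 37.7 and 38.6 CPM to 259, 230.3 and 215 CPM. Of the sodium pump's beta subunits, Atp1b1 fell from 108, 119 and 135 CPM to 13.3, 10.3 and 12.7 CPM and Atp1b3 rose from 94.5 to 294 CPM.

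**Figure D3:**
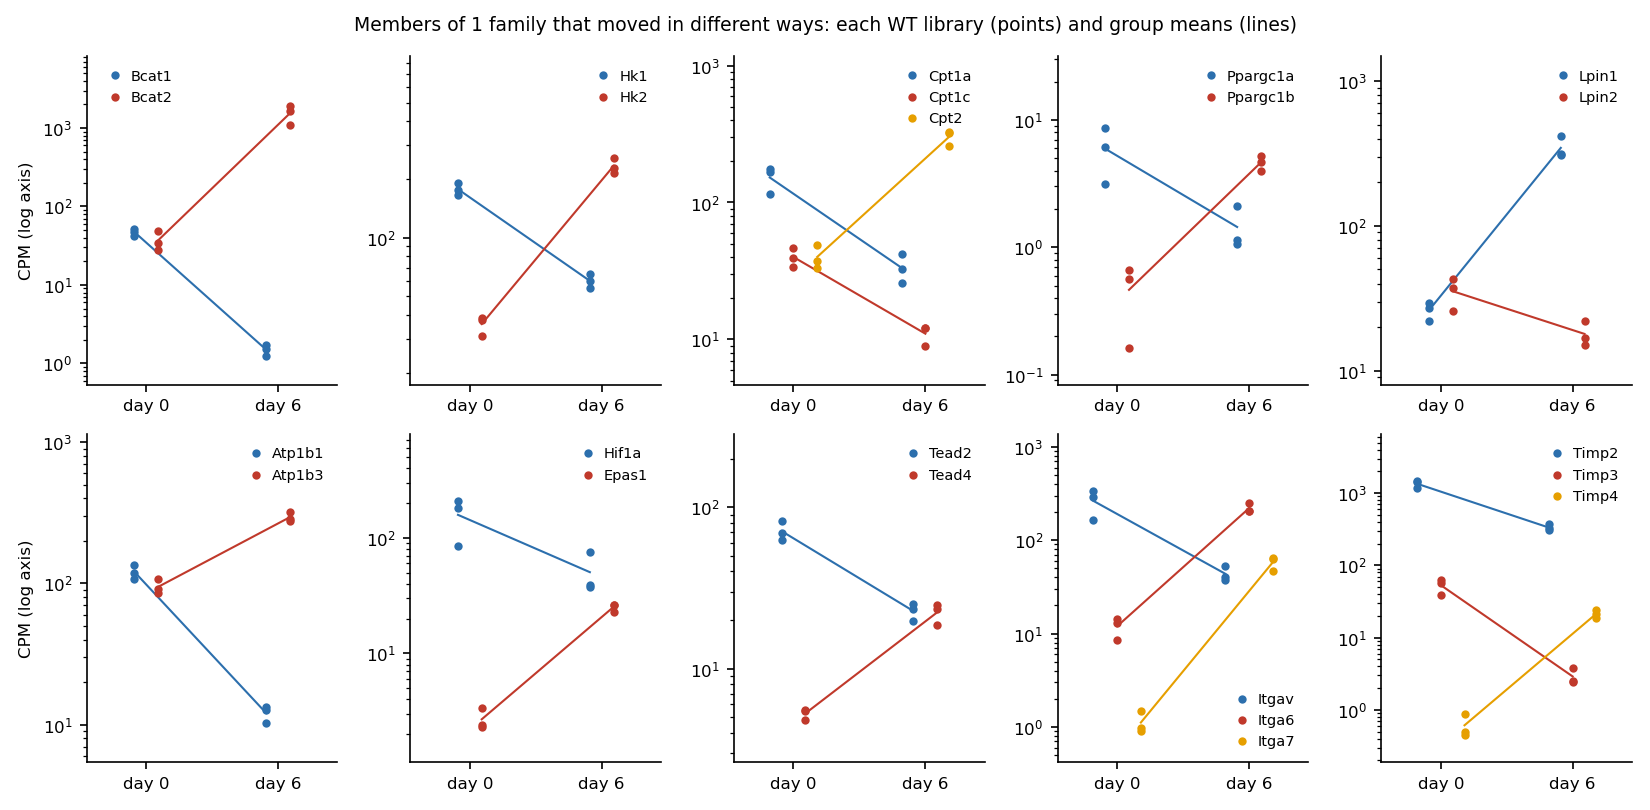
CPM on log axes for members of 10 gene families in each of the 3 WT libraries of day 0 and day 6 (points), with lines between group means. Bcat1 and Bcat2 started at similar CPM and ended at means of 1.49 and 1539 CPM, and the 3 libraries of a day do not overlap those of the other for any gene drawn.

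The PGC-1 coactivators, which control mitochondrial content, parted as well. Ppargc1a fell from 3.12, 6.08 and 8.6 CPM to 2.13, 1.06 and 1.15 CPM (-2.03 ± 0.45, adjusted p = 0.00643), Pprc1 fell from 47.4 to 26.4 CPM, and Ppargc1b rose from 0.559, 0.668 and 0.163 CPM to 4.7, 3.94 and 5.25 CPM (3.29 ± 0.44, adjusted p = 0.000479). The hypoxia factors did so too: Hif1a went from 158 to 50.4 CPM and Epas1, for HIF-2 alpha, from 2.69 to 25.2 CPM. Hif3a, for another alpha subunit, rose by at least 409-fold, from no count to 15.6, 15.9 and 17.1 CPM. Lipins, the phosphatases that make diacylglycerol, gave a rise of Lpin1 from 21.9, 29.2 and 27.2 CPM to 416, 308 and 311 CPM and a fall of Lpin2 from 35.4 to 18 CPM. Cyclins of the D type gave a fall of Ccnd1 from 241 to 135 CPM and a rise of Ccnd3 from 171 to 377 CPM. Akt2, the AKT kinase of insulin-driven glucose uptake, rose from 86.7 to 142 CPM. Slc2a4, the glucose transporter that insulin moves to the cell surface, rose by at least 5204-fold, from no count to 186, 213 and 219 CPM, while the general transporter Slc2a1 was at 94.2 to 113 CPM and did not pass.

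Fat storage genes rose at nearly every step, with a few named exceptions. Of 28 tested genes of fatty acid synthesis, desaturation and elongation, 23 rose and 3 fell (median 1.74). Scd1, the desaturase that makes oleate, held 136, 156 and 177 CPM at day 0 and 23890, 20730 and 21300 CPM at day 6 (7.13 ± 0.22, adjusted p = 5.18e-07), and Scd2 rose from 837 to 5022 CPM. Reads may be split between the near-identical Scd genes, so the level of each is uncertain. Elongases of long chains rose, with Elovl3 at 27.6, 27.7 and 25.4 CPM at day 6 after 1 count at day 0, and Elovl4 from 2.98 to 48.1 CPM. The exceptions were Elovl6, which extends palmitate, at 24.6, 24.4 and 27.7 CPM and 10.7, 8.85 and 8.68 CPM (-1.44 ± 0.17, adjusted p = 0.000278), Fads2, the delta-6 desaturase, from 95.2 to 39.9 CPM, and Hacd4 from 47 to 7.05 CPM. Acly, which makes cytosolic acetyl-CoA, was at 256 to 285 CPM and did not pass. Slc25a1, which exports the citrate that Acly splits, rose from 184 to 762 CPM, and Slc5a6, the biotin transporter, from 9.52 to 301 CPM (4.98 ± 0.17). Biotin is the cofactor of acetyl-CoA and pyruvate carboxylase.

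Genes that make the glycerol backbone and acylate it rose too. Of 30 tested glycerolipid genes 21 rose and 1 fell (median 2.45). Gpd1, which makes glycerol 3-phosphate, held 4, 2 and 5 counts at day 0 and 1524, 1672 and 1862 CPM at day 6 (13.43 ± 0.34, adjusted p = 3.6e-07). Pck1, the enzyme of glyceroneogenesis, rose by at least 777-fold, from no count to 32.4, 27.9 and 31.6 CPM. Both diacylglycerol acyltransferases, which add the last fatty acid, rose, Dgat1 from 23.6, 18.8 and 17.6 CPM to 507, 688 and 728 CPM and Dgat2 from 3.45, 2.8 and 2.73 CPM to 914, 1149 and 1308 CPM. Per kilobase, Dgat1 was at 6.54 RPKM and Dgat2 at 0.971 at day 0, and at day 6 Dgat1 was at 209.8 and Dgat2 at 364. The order of the pair was thus reversed.

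Most tested genes of the mitochondrial lists rose. None fell among the respiratory complexes, the mitochondrial ribosome, the import list or the mitochondrially encoded mRNAs. Mitochondrial carriers rose in 26 of 39 tested genes and fell in 4. Genes of mitochondrial genome upkeep and transcription rose in 12 of 20 and fell in 3. In complex I 32 of 36 tested genes rose and none fell (median 1.68), and in complexes II to V 38 of 43 rose and none fell (1.82). The mitochondrial ribosome rose in 58 of 78 genes with none lower (1.01), and 38 with raw library totals. Cytosolic ribosomal protein genes, by contrast, had 1 of 77 called and a median of -0.03, with the spread between replicates given above; the difference between the lists was not tested. Aminoacyl-tRNA synthetases, which charge tRNAs, divided by compartment: of 17 mitochondrial synthetases 13 rose and 1 fell, and of 20 cytosolic synthetases 2 rose and 5 fell. Ears2, for mitochondrial glutamyl-tRNA, was at 2.04 ± 0.27 and the cytosolic Aars at -1.11 ± 0.15. Import, cristae and chaperone genes rose in 40 of 46, and in 26 without day 0 replicate 2. Of the mitochondrially encoded mRNAs 7 of 13 were tested and 6 rose. The other 6 had 12 counts or fewer in every library.

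Of 31 tested genes of fatty acid oxidation 26 rose and 5 fell (median 1.87). Those that fell were Acot1 and Acot13, thioesterases that free fatty acids from CoA, Ppargc1a, Cpt1a and Cpt1c, and the call of Acot13 (adjusted p = 0.0446) was lost on leaving out any library but day 0 replicate 3 (0.0543 to 0.105). Cpt1a, the carnitine palmitoyltransferase of the outer membrane that admits fatty acids, fell from 115, 167 and 174 CPM to 41.7, 32.5 and 25.7 CPM (-2.19 ± 0.24, adjusted p = 0.00016), and Cpt1c fell from 39.9 to 11 CPM. Cpt2, its partner on the inner membrane, rose from 49, 37.5 and 33.5 CPM to 260.4, 319.9 and 325 CPM (2.92 ± 0.20, adjusted p = 1.28e-05). Cpt1b, the muscle form, was at 1.57 to 3.61 CPM with adjusted p = 0.0264, and its call was lost without day 0 replicate 2 (adjusted p = 0.094) or day 6 replicate 2 (0.096) and with raw library totals (0.11). Per kilobase, Cpt1a stood at 19.9 RPKM at day 0 and 4.36 RPKM at day 6, and Cpt1b at 0.467 and 1.07 RPKM. The dehydrogenases of the spiral rose, with Acadm from 40.4 to 754 CPM and Acadvl from 75.6 to 504 CPM.

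In the TCA cycle and its feeding reactions 33 of 37 genes rose and 1 fell. The largest rise was that of Pcx, pyruvate carboxylase, which refills oxaloacetate: 97.3, 102 and 86.1 CPM at day 0 and 2377, 2869 and 3325 CPM at day 6 (4.91 ± 0.20, adjusted p = 1.19e-06). The member that fell was Me3, a mitochondrial malic enzyme, from 1.07 to 0.184 CPM, while the cytosolic Me1, a source of NADPH, rose from 48.6, 45.3 and 52.6 CPM to 106, 119.6 and 107 CPM. Over glycolysis and the pentose phosphate pathway 22 of 33 genes rose and 5 fell (3 without day 0 replicate 3). Of the pentose phosphate genes, G6pdx, whose step makes NADPH, rose from 107 to 367 CPM, Taldo1 from 76.7 to 557 CPM and Tkt from 185 to 774 CPM. Slc25a10, the dicarboxylate carrier, went from 24.8, 19 and 14.7 CPM to 318, 469.7 and 618 CPM. Peroxisomal genes rose in 36 of 45 and fell in 2, and Cat, for catalase, went from 64.4 to 476 CPM.

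Genes of amino acid metabolism differed by pathway. Of 27 genes of branched-chain breakdown 25 rose, Bcat1 fell and Bckdk, the kinase that inhibits the pathway, was at 0.43 and did not pass (median 1.78). Bckdhb, a subunit of the dehydrogenase complex that commits the carbon, went from 14.1, 13.3 and 13.7 CPM to 108, 123 and 121 CPM. Glul, glutamine synthetase, rose from 24.8, 28.8 and 30.5 CPM to 2286, 2018 and 1987 CPM (6.22 ± 0.19, adjusted p = 5.18e-07). For proline, which collagen uses in bulk, genes of synthesis fell and a gene of breakdown rose: Aldh18a1 fell from 146, 169.7 and 168 CPM to 48.6, 48.8 and 41.5 CPM, Pycr1 from 37.5 to 9.76 CPM, and Prodh rose from 0.279, 0.10 and 0.0815 CPM to 73.3, 88.7 and 119 CPM (9.26 ± 0.40, adjusted p = 1.43e-06). In the folate cycle Aldh1l1, the cytosolic formyltetrahydrofolate dehydrogenase, rose from 0.611 to 229 CPM and its mitochondrial paralogue Aldh1l2 fell from 78.1 to 10.8 CPM. Among transporters, Slc1a5, for glutamine and other neutral amino acids, rose from 68.9, 64.1 and 56 CPM to 1345, 1551 and 1724 CPM and Slc1a3, for glutamate, from 8.94 to 284 CPM. Slc38a4 fell from 28.8 to 1.95 CPM (-3.88 ± 0.28). Of 25 tested genes of glycogen 11 rose, 3 fell (Pgm2, Gaa and Stbd1) and 11 did not pass, and 5 fell without day 0 replicate 1. The call of Stbd1 was lost without day 0 replicate 2, day 6 replicate 1 or day 6 replicate 3 (adjusted p from 0.0731 to 0.0918). Ppp1r3c, a scaffold that activates glycogen synthase, rose from 82.3, 74.1 and 83.7 CPM to 1078, 1039 and 1068 CPM, and Pygl, liver glycogen phosphorylase, from 1 count to 13.4, 12.1 and 14.6 CPM.

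Many enzymes that are best known from liver rose. Of 42 tested aldehyde, carbonyl and P450 enzymes 28 rose and 5 fell (median 1.06). Cyp2e1, which oxidises ethanol and ketones, rose by at least 10720-fold, from no count to 400.4, 413 and 458 CPM. Cyp2f2 went from 5.63, 5.91 and 5.34 CPM to 473, 515 and 550.5 CPM, and Por, the reductase that feeds electrons to P450 enzymes, from 72.6 to 537 CPM. The carboxylesterases Ces1d and Ces1f, which hydrolyse lipid esters, rose from 1.5 to 132 CPM and from 2.1 to 148 CPM. Akr1c14, a steroid dehydrogenase, fell from 59.9 to 4.37 CPM. In retinoid metabolism Bco1, which splits beta-carotene, held 0, 5 and 8 counts at day 0 and 79, 98.4 and 70 CPM at day 6, and Retsat rose from 40.5, 33.5 and 36.6 CPM to 632, 738 and 821 CPM. Car5b, the mitochondrial carbonic anhydrase, which supplies bicarbonate for carboxylases, rose from 39.3, 37.8 and 43.1 CPM to 815, 793 and 719 CPM (4.28 ± 0.16, adjusted p = 8.28e-07).

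Secreted proteins of the acute phase rose while the iron exporter fell. Of 24 tested genes of metal handling and the acute phase 14 rose and 6 fell. Hp, for haptoglobin, which binds free haemoglobin (ENSMUSG00000031722, chromosome 8, 109575128 to 109579172, reverse strand), went from 3.54, 2.1 and 2.45 CPM to 5203, 7780 and 9008 CPM (11.42 ± 0.40, adjusted p = 7.07e-07). Orm1, for an orosomucoid, rose from 0.42 to 748 CPM, and Hpx, for the haem carrier hemopexin, from 0.13 to 35.2 CPM. Tfrc, the transferrin receptor, rose from 24.1 to 116 CPM. Slc40a1, for ferroportin, the exporter of iron, fell from 81.3, 97.4 and 114 CPM to 5.94, 3.75 and 3.91 CPM (-4.42 ± 0.25, adjusted p = 5.12e-06), and the ferritin genes Fth1 and Ftl1 did not pass. Complement genes went both ways, with 8 of 17 tested higher and 6 lower (3 lower without day 0 replicate 2 or day 0 replicate 3). C3, the component on which the pathways converge, rose from 396, 461 and 468 CPM to 9224, 10070 and 9707 CPM. Cfd and Cfb of the alternative pathway rose, as did C4b of the classical pathway, from 3.54 to 20.4 CPM. C1s1 and C1ra, proteases of the classical pathway, fell from 229 to 54.9 CPM and from 118 to 33.6 CPM. Genes of eicosanoid synthesis and response, which covers prostaglandins and leukotrienes, went both ways too, with 11 of 20 higher and 9 lower. Ptgs1, a cyclooxygenase at the head of the path, fell from 258, 249.9 and 260.4 CPM to 75.1, 83.4 and 86.4 CPM and Ptgs2 from 6.42 to 1.23 CPM, and the terminal synthases Ptges and Ptgds rose from 106 to 238 CPM and from 0.954 to 11.3 CPM.

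Interferon-stimulated genes, the antiviral set that cells switch on through factors that include STAT2 and IRF9, were expressed in the preadipocytes and fell. Of 71 with a row in the data, 61 were tested, of which 52 fell, 3 rose and 6 did not pass (median -2.77). The sequence through which these factors act is the interferon-stimulated response element, searched here on both strands as GAAANNGAAA in RefSeq promoters of GRCm38.p6, from 250 bases before to 50 after a start. Overlapping matches were each counted. Promoters were found for 40 of the genes that fell, and 23 of them (57.5%) held the motif, against 353 of 9416 (3.75%) of all tested genes with a promoter. Of the list's genes that rose or did not pass, 4 had a promoter and 2 held the motif. In the last 150 bases before the start the shares were 40.0% of those that fell and 1.75% of all, and again 2 of the 4. A match is a description of the sequence and not evidence that a factor binds there. The stretches below show the matches, in capitals, with 20 flanking bases where the start is not reached first, for 4 genes that fell and for Ifi205, which rose.

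Ifit1 (chr19:34640765-34640833, forward strand): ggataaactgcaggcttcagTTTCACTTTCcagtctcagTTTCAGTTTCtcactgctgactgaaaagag
Ifit3 (chr19:34583353-34583436, forward strand): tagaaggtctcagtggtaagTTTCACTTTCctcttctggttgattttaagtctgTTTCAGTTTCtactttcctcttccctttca
Isg15 (chr4:156200855-156200916, reverse strand): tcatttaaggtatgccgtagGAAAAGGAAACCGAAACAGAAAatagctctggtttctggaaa
Oas1a (chr5:120907526-120907565, reverse strand): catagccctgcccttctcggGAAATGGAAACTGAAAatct
Ifi205 (chr1:174031860-174031909, reverse strand): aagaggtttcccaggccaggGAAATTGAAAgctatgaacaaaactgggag

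Isg15 carries 3 overlapping matches in a row, Oas1a 2 that overlap, and Ifit1 and Ifit3 2 separate ones on the opposite strand. Isg15, a ubiquitin-like protein, stood at 59.9, 39.8 and 37.7 CPM at day 0 and 1.24, 1.64 and 0.668 CPM at day 6 (-5.27 ± 0.35, adjusted p = 1.16e-05). Ifit1, which blocks translation of viral RNA, held 58.8, 61.8 and 69.1 CPM at day 0 and a total of 2 counts at day 6. Oas1a, which senses double-stranded RNA, had 68, 60 and 59 counts at day 0 and none at day 6, at least 26.4-fold lower. Of Ifit3, reads may be shared with its near copy Ifit3b, and both fell. Ifi205, a DNA sensor of the same family as Ifi204, rose from 1.02, 1.4 and 1.47 CPM to 16.7, 9.62 and 8.87 CPM (3.16 ± 0.33, adjusted p = 0.00012), and Ifi204 rose from 50.6 to 142 CPM. The remaining riser, Ifi27, had adjusted p = 0.0485, and its call was lost without day 0 replicate 2 or 3 or day 6 replicate 2 or 3 (adjusted p 0.14 to 0.16). Genes of these factors fell, Stat2 from 78.5, 97.7 and 95.6 CPM to 20, 15.8 and 11.5 CPM and Irf9 from 46.8, 46 and 48.4 CPM to 11, 11.3 and 8.11 CPM.

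**Figure D4:**
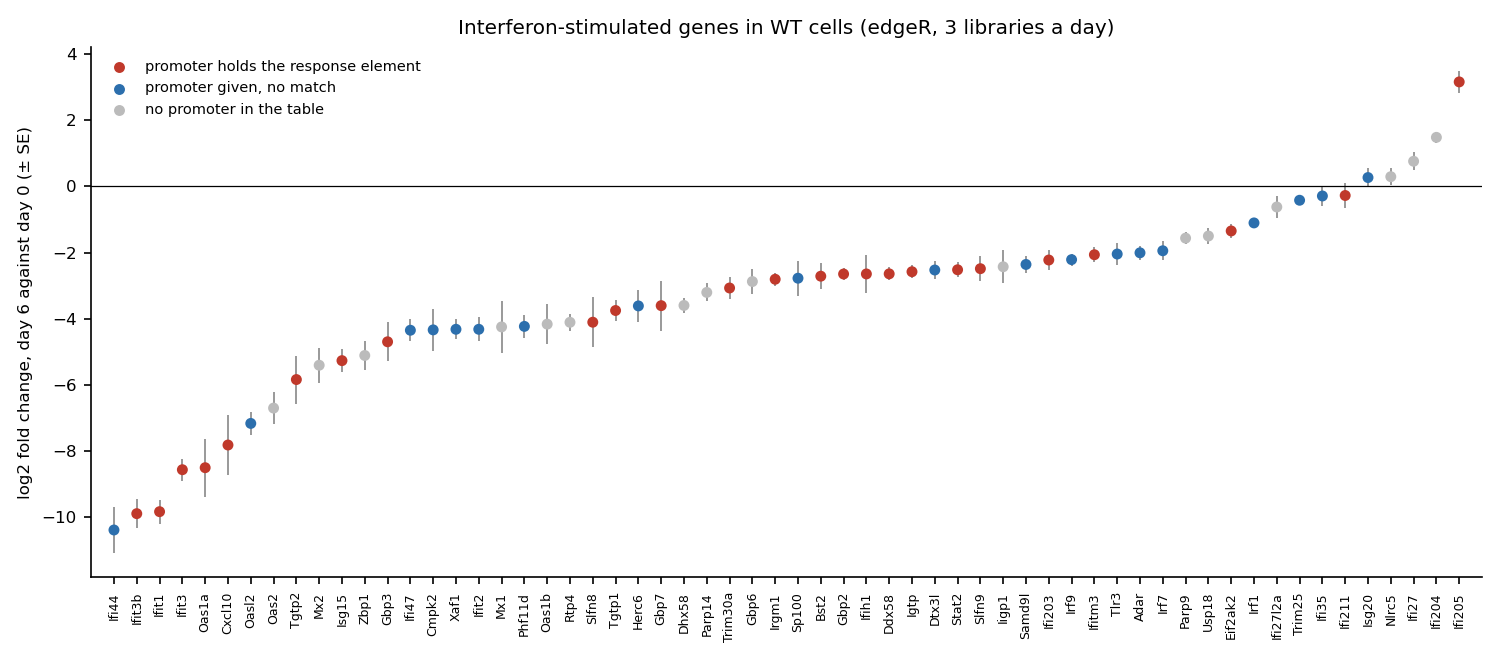
Log2 fold change of interferon-stimulated genes in edgeR, day 6 against day 0, with approximate SE, in order of size. Colours mark whether a RefSeq promoter holds the response element. Of the 61 genes tested 52 fell and 3 rose, 1 that did not pass is not drawn, and the values at the far left come from genes with 0 to a few counts at day 6, whose fitted size depends on the prior count.

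Genes that present antigen on MHC class I, which interferon also raises, went both ways: 8 of 20 tested fell, 4 rose and 8 did not pass (median -0.30). The risers were 2 without day 0 replicate 2, day 0 replicate 3 or day 6 replicate 2. H2-K1, a class I heavy chain, rose from 252, 157 and 146 CPM to 394, 598 and 637 CPM (1.55 ± 0.27, adjusted p = 0.0018), although reads may be shared among the similar H2 genes. B2m, the light chain, fell from 1729, 1326 and 1365 CPM to 621, 734 and 713 CPM, and Tap1, the peptide pump, from 43.4 to 14.3 CPM. Chemokine and cytokine genes fell in 17 of 24 tested and rose in 4 (median -2.39). Ccl2, which draws monocytes, fell from 126, 94.4 and 104 CPM to 1.86, 2.69 and 3.24 CPM, and Cxcl12, a stromal chemokine, from 1751 to 334 CPM. Cxcl13, which draws B cells, rose by at least 535-fold, from no count to 22.9, 22.9 and 17.6 CPM. The response element was found in 1 of 17 chemokine and cytokine promoters (5.88%) and in 5 of 16 promoters of the class I list (31.2%). The direct repeat of AGGNCA that PPAR gamma and RXR bind, written AGGNCANAGGNCA, was found in 27 of 9416 promoters (0.287%). In 6 lists of adipocyte lipid and secreted protein genes together, it was in 1 of 90 promoters of genes that rose, that of Elovl1, which extends very long chains and rose from 106, 91.4 and 84.4 CPM to 386, 475 and 499 CPM.

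Elovl1 (chr4:118429586-118429638, forward strand): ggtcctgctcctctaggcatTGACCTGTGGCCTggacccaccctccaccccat

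Matrix genes went both ways. Among collagens that form fibres, the main matrix of connective tissue, these fell: Col1a1 from 7924, 10150 and 6679 CPM to 1377, 1465 and 1641 CPM (-2.46 ± 0.20, adjusted p = 3.76e-05), Col3a1 from 6879 to 3181 CPM and Col5a2 from 1418 to 574 CPM. Col12a1 and Col8a1 fell by 3.65 and 5.07 on the log2 scale. Col4a1 and Col4a2, the network of the basement membrane, rose from 1376, 2050 and 1744 CPM to 5354, 4734 and 5001 CPM and from 1036, 1385 and 1139 CPM to 3412, 3641 and 3821 CPM. So did the chains of collagen VI, with Col6a3 from 1512, 2595 and 2463 CPM to 8053, 6807 and 6804 CPM (1.72 ± 0.23, adjusted p = 0.000501) and Col6a2 from 1692 to 3846 CPM. Lamb3, a laminin chain, rose from 0.559 to 43.5 CPM, and Lama5, another laminin chain, fell by 1.61 on the log2 scale, as did Col4a5, another chain of the network collagen, by 1.84. Over the basement membrane list 6 of 22 tested genes rose and 6 fell (27.3% each). These shares were near the 25.8% and 25.7% over all genes tested. On leaving out 1 library, 3 fell without day 0 replicate 2 or day 6 replicate 2. The whole collagen list is not limited to chains that form fibres, and Col8a1 is in it. Of its 19 tested genes 9 fell and 6 rose. Its share of all counts went from 3.59% to 4.91% at day 0 to 2.06% to 2.31% at day 6. This share was not split by type of chain.

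Adhesive proteins and the receptors for them changed alongside. Of 34 tested adhesive and matricellular genes 28 fell and 2 rose (median -2.14). Fn1, for fibronectin, fell from 5582, 10090 and 9725 CPM to 1407, 1108 and 1058 CPM (-2.83 ± 0.27, adjusted p = 7.73e-05). Spp1, for osteopontin, fell from 913, 768 and 877 CPM to 42.4, 37.2 and 33.3 CPM, and Mfap4, a microfibril protein, from 59.5, 51.8 and 47.3 CPM to 0.532, 0.385 and 0 CPM. Integrins and other adhesion receptors fell in 21 of 31 and rose in 3. Receptors for collagen and for fibronectin and osteopontin were among those that fell: Itga11 from 14.9, 24.1 and 22.6 CPM to 0.177, 0.192 and 0.859 CPM, Itgav from 264 to 43.7 CPM and Itgb5 from 440.3 to 94.9 CPM. Among laminin-binding alpha chains, Itga6 rose from 8.61, 13.1 and 14.2 CPM to 248, 205 and 206 CPM (4.20 ± 0.23, adjusted p = 4.83e-06) and Itga7 rose from 0.978, 1.47 and 0.897 CPM to 46.2, 62.3 and 65.2 CPM (5.67 ± 0.27, adjusted p = 2.34e-06), whereas Itga3 fell from 7.44 to 3.5 CPM. Per kilobase, Itgav went from 24.5 to 4.07 RPKM and Itga6 from 1.33 to 24.4 RPKM, which reversed their order. Mcam, an adhesion molecule also named CD146, stood at 0.466, 0.634 and 0.449 CPM at day 0 and 238, 234 and 259.5 CPM at day 6 (8.85 ± 0.21, adjusted p = 3.6e-07).

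Enzymes that cut the matrix and their inhibitors fell in 25 of 41 tested and rose in 8. Mmp3, stromelysin, fell from 238, 187 and 221 CPM to 10, 10 and 8.2 CPM and Mmp9, a gelatinase, from 25.8 to 0.285 CPM. The tissue inhibitors Timp1, Timp2 and Timp3 fell by 2.45, 2.02 and 4.19 on the log2 scale, and Timp4 rose from 0.885, 0.501 and 0.449 CPM to 18.9, 24.1 and 21.4 CPM (5.14 ± 0.30, adjusted p = 6.35e-06). Inside the cell, 29 of 42 actin cytoskeleton genes fell and 5 rose. All 4 tropomyosins fell, Actn1, an actin crosslinker, fell from 241, 398 and 367 CPM to 79.2, 53.9 and 47.5 CPM, and Rhob, a small GTPase, rose from 138, 113 and 93.9 CPM to 563, 724 and 804 CPM.

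**Figure D5:**
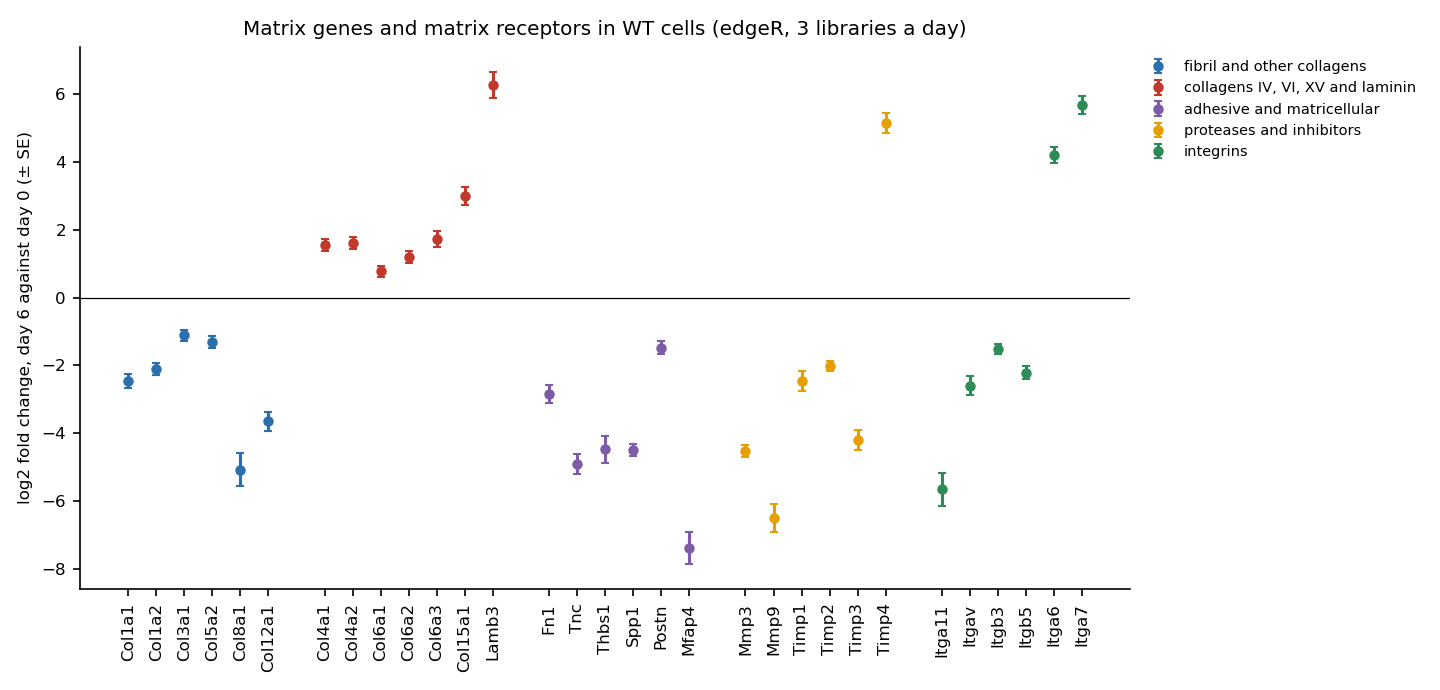
Log2 fold change in edgeR, day 6 against day 0, with approximate SE, for matrix genes and matrix receptors grouped by role, with 3 libraries a day. Collagens IV, VI and XV, Lamb3, Timp4, Itga6 and Itga7 lie above 0, from 0.77 for Col6a1 to 6.27 for Lamb3, and every other gene drawn lies below it.

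Genes of mitosis fell between the confluent day 0 cultures and day 6. Of 47 genes of mitosis 31 fell and 1 rose (median -1.12). Top2a, which untangles DNA, went from 16.8, 19.8 and 23.4 CPM to 11.2, 9.43 and 8.59 CPM (-1.04 ± 0.20, adjusted p = 0.00327), and Kif20a, a spindle motor, from 20.4 to 6.21 CPM. Nusap1 was the member that rose, from 4.52, 3.27 and 3.91 CPM to 11.1, 9.04 and 7.15 CPM. Mki67, the common proliferation marker, was at 5.49, 5.78 and 6.93 CPM and 4.17, 4.33 and 3.72 CPM and did not pass (adjusted p = 0.0549), and Cdk1 was at 0.17 and did not pass. Cdkn2c, an inhibitor of CDK4 and CDK6, rose from 33.3, 29.1 and 26.2 CPM to 159, 189 and 183 CPM (2.58 ± 0.16, adjusted p = 8.52e-06), while Cdkn1b fell from 43 to 19.7 CPM and Cdk4 from 659.9 to 248 CPM.

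Genes of the lysosome and autophagy did not share the general rise of metabolic organelles. Of 49 tested genes of this list 20 fell, 3 rose and 26 did not pass (median -0.39). Gaa, the acid glucosidase of glycogen, fell from 841, 852 and 639 CPM to 178, 243 and 315 CPM (-1.66 ± 0.23, adjusted p = 0.000619), and Lamp1, of the lysosomal membrane, from 1944 to 1110 CPM. Tfeb, the factor that activates lysosomal genes, rose from 7.26, 5.51 and 3.02 CPM to 15.2, 28.4 and 40.2 CPM (2.41 ± 0.42, adjusted p = 0.00195). The groups did not overlap for any of these 3 genes. The count of genes of the list that rose was 10 with replicate 1 of both days left out. It was 1 without day 0 replicate 3, day 6 replicate 2 or day 6 replicate 3.

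Some genes went from no count to at least 10 in every library, or the reverse. At day 6 the most abundant of the 76 genes that had no count at day 0 were Cfd, Retn, Cyp2e1, Slc2a4, Fam83a and Apoc3. Fam83a had 1247, 1250 and 1388 counts in the day 6 libraries, at least 3058-fold higher by the same floor. Apoc3, an apolipoprotein of triacylglycerol-rich particles, had 615, 1063 and 951 counts (at least 2069-fold), and its neighbour in the same gene cluster, Apoa4, had 425, 580 and 895 counts (at least 1496-fold). Ear1 and Ear10, ribonucleases of near-identical sequence, were on as well, and reads may be split between them. Of the 41 genes with counts only at day 0, the most abundant included Ifi44, Fgd3, Rab27a, Oas1a and Raet1e, and Ifi44 and Oas1a are interferon-stimulated. Fgd3, an exchange factor for the small GTPase CDC42, had 93, 194 and 137 counts at day 0 and was at least 59.9-fold lower. Levels on the on side reached further than on the off side: the highest mean was 9459 CPM for Cfd at day 6 and 9.29 CPM for Ifi44 at day 0.

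Miga2, which encodes the mitochondrial outer membrane protein mitoguardin 2 that the study is about (ENSMUSG00000026858, chromosome 2, 30364233 to 30385521, forward strand), rose in normal differentiation. It stood at 15.4, 17.5 and 13.4 CPM at day 0 and 142, 157 and 179 CPM at day 6, a log2 fold change of 3.37 ± 0.17 SE (adjusted p = 3.7e-06). Its paralogue Miga1 was at 1.4, 1.94 and 1.14 CPM and 1.68, 0.673 and 1.24 CPM, with overlapping groups (adjusted p = 0.549). The rise of Miga2 was smaller on the log2 scale than that of Dgat1 or Pcx and larger than the median of any mitochondrial list given above.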

How the data were processed

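RNA of 6 wild-type 3T3-L1 samples, 3 at each day, was extracted with RNeasy columns and sequenced from stranded TruSeq libraries, per the labels' protocols. The values deposited by the authors are raw counts of reads per Ensembl gene. The submitters' processing notes name bcl2fastq 2.19, Trimmomatic, STAR 2.5.4b, featureCounts, edgeR and the build GRCm38.p5; not given in the sources used here are the strand setting and how multi-mapping reads were treated, so levels of near-identical and overlapping genes are uncertain. Of 25700 identifiers, 25664 were matched to GENCODE vM21 symbols.

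Genes were kept by filterByExpr (minimum count 10, minimum total 15), scaled by TMM and tested with edgeR 4.0.16 (R 4.3.3, quasi-likelihood, two-sided, Benjamini-Hochberg over 12174 genes, threshold 0.05). Values after ± are approximate SE of the log2 fold change, taken as its absolute value over the square root of the test's F statistic. For genes with few counts on a day they depend on the prior count, as the fold does. CPM use the TMM-scaled totals and RPKM divide these by the union of exons. Folds against 0 are bounds from a floor of 3 counts over the group; counting intervals are at 95% and, like the floors, cover counting error only. DESeq2 1.42.0 and limma 3.58.1 (voom) served as alternatives. On simulated data the fit recovered 30% of genes changed by 1 on the log2 scale, 98% changed by 2 and 96% changed by 3. It called 5 of 11823 unchanged genes. The simulation changed 50 genes of each size, far fewer than the 6259 that passed here, and drew every gene independently. Its rates therefore need not hold for the data.

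Named genes were taken by rule: the 12 largest rises and falls, the 10 most abundant genes of each day, members of 36 families, up to 3 largest rises and falls in each of 77 lists, the 6 most abundant genes switched each way, and the markers. Further genes of the lists were named with their values known, and some items are not reported here. The comparison, lists and families were chosen with earlier results of these data known, so no test over a list is given. Same-numbered replicates did not deviate together (correlations of deviations -0.73, -0.37 and -0.52 across genes), so the numbers were not treated as pairs. For differently numbered libraries these correlations ran from -0.42 to 0.71. For replicates 1 to 3, deviations correlated with transcript length at -0.60, 0.45 and 0.52 on day 0 and at 0.47, -0.31 and -0.31 on day 6. With GC content they correlated at 0.39, 0.05 and -0.58 on day 0 and at -0.49, 0.20 and 0.43 on day 6.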

Additional observations from a re-analysis of the deposited data

How the results depend on the processing

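No gene that passed in both the reported fit and an alternative changed its direction. With replicate number as a term (the replicate block), 4135 genes passed, 2187 higher and 1948 lower. Against a fold of at least 2 (glmTreat), 2558 passed, 1398 higher and 1160 lower. Raw library totals gave 4968 lower genes, and upper-quartile scaling 2684 higher and 3664 lower. Leaving out each library in turn gave 4744 to 7202 genes, 2459 to 3653 higher and 2285 to 3549 lower, and without replicate 1 of both days 9064 passed. The causes of these differences were not tested. DESeq2 size factors, the DESeq2 test, limma-voom, the absence of a filter, thinned day 0 libraries, GC and length offsets and a fit of all 15 libraries kept each count within 1.5 times. Searching only the last 150 bases before the start gave 40.0% of the interferon-stimulated genes that fell and 1.75% of all genes tested. Depth limits genes of few counts: fitted values of genes with 0 counts on a day depend on the prior count.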

Other observations

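Genes linked to heat production in fat rose in 8 of 13 tested and fell in 2, with no count of Ucp1 in any library. Wnt ligands, receptors and antagonists, which hold back adipogenesis or release it, fell in 11 of 23 and rose in 4. Sfrp5, a secreted Wnt antagonist, went from 0, 0 and 0 CPM at day 0 to 10.3, 20 and 19.9 CPM at day 6 (edgeR adjusted p = 5.63e-05). It was at least 419.5-fold higher when day 0 is set to a floor of 3 counts in its libraries together. Other secreted members of the list fell, Sfrp2 from 33.4 to 3.69 CPM and Dkk3 from 2.16 to 0.308 CPM. Small leucine-rich proteoglycans of the matrix fell in 7 of 12 and rose in 2.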
